A study of Mus musculus with 7 samples.

Results

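The nuclear genes of the mitochondrial ribosome were followed through colon development in inbred C57BL/6 mice, with 1 microarray of colon total RNA for each embryonic day (E) from E13.5 through E14.5, E15.5, E16.5 and E17.5 up to E18.5, and 1 for the adult 8 weeks old. Members were chosen by name alone, as every gene whose symbol on the array begins with Mrpl (large subunit) or Mrps (small subunit) followed by a number. This gave 78 symbols, of which 76 had at least 1 probe set that names no other gene, out of 18194 genes measured in this way, and 47 of the 76 belong to the large and 29 to the small subunit by symbol. Mrpl30 and Mrpl53 were present only on probe sets shared with another gene. Levels are log2 values normalised by robust multi-array averaging (RMA), a procedure that gives every array the same overall distribution of values, and a gene's level is the median over its probe sets. The mice carried no named allele and received no named treatment, and the number of animals behind an array is not given in the sources used here. No stage had a second array, so a stage and its array cannot be told apart.

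Mitochondria translate a small set of membrane proteins from their own genome, all of them subunits of the respiratory chain and ATP synthase. The ribosome that does this has RNA made inside the organelle, whereas its proteins are encoded in the nucleus, made in the cytosol and imported. Some of these proteins have relatives in the ribosomes of bacteria, such as Mrpl12 and Mrps12, and others occur only in mitochondria. The large subunit joins amino acids and the small subunit decodes the messenger. The epithelium of the mature colon draws much of its energy from the oxidation of butyrate in mitochondria.

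All 12 epithelial genes listed, among them Vil1 and Cdx1, rose across the embryonic days (limma, adjusted p under 0.05). Car1 and Slc26a3, both of mature colon epithelium, were a further 6.66 and 4.79 higher on the log2 scale in the adult than the level fitted at E18.5. Before birth Car1 read 5.74 to 6.84 and Slc26a3 4.33 to 4.85, so this pair bears out the label of colon for the adult array alone. Other tissue components moved as well. All 7 measured genes of dividing cells fell across the embryonic days, and the median level of 7 leukocyte genes was 8.94 in the adult, against 5.57 to 5.88 on the embryonic arrays, with 5 of the 7 called higher in the adult. Genes of adipocytes (3 of 3 measured) and pancreatic acinar cells (3 of 5) were also called higher in the adult. The difference between 5′ and 3′ control probe sets, a sign of RNA integrity, was −2.41 for Gapdh in the adult, against −1.59 to −1.29 on the embryonic arrays. For Actb it was −2.66 in the adult, against −2.14 to −1.96 on the embryonic arrays.

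Against this background the mitochondrial ribosomal protein genes showed little shared movement at most stages. With each gene centred on its mean over the 7 arrays, the median over the 76 members was 0.08 at E13.5, 0.02 at E14.5, −0.19 at E15.5, −0.0082 at E16.5, −0.0046 on the next day, 0.06 at E18.5, and 0.02 for the adult array. The same median over all genes lay between −0.02 and 0.02 throughout. Such a median stays near 0 where single genes move in mixed directions. In the adult the quartiles of the members were −0.17 and 0.21. E15.5 was thus the one stage at which the members as a body lay low, and the medians of the other 6 stages lay between −0.0082 and 0.08. A member's distance between its highest and lowest array had a median of 0.53, from 0.11 in Mrps25 to 1.498 in Mrpl34, close to the 0.52 over all genes. Wide ranges were less common among members, however, with 6 of 76 (7.89%) spanning at least 1 log2 unit, compared with 23.5% of all genes. These 6 were Mrpl34, Mrpl16, Mrpl43, Mrpl36, Mrpl12 and Mrpl1. The highest mean signals over the 7 arrays were those of Mrpl24 (11.30), Mrpl52, Mrps18c and Mrpl13. The lowest were those of Mrpl17 (5.67), Mrpl47, Mrps25 and Mrps5. In Mrpl17, Mrpl47 and Mrps25 the median follows a dim probe set, while the brightest averaged 9.66, 10.38 and 8.94. This gives no order of abundance, as probe sets also differ in their response.

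**Figure D1:**
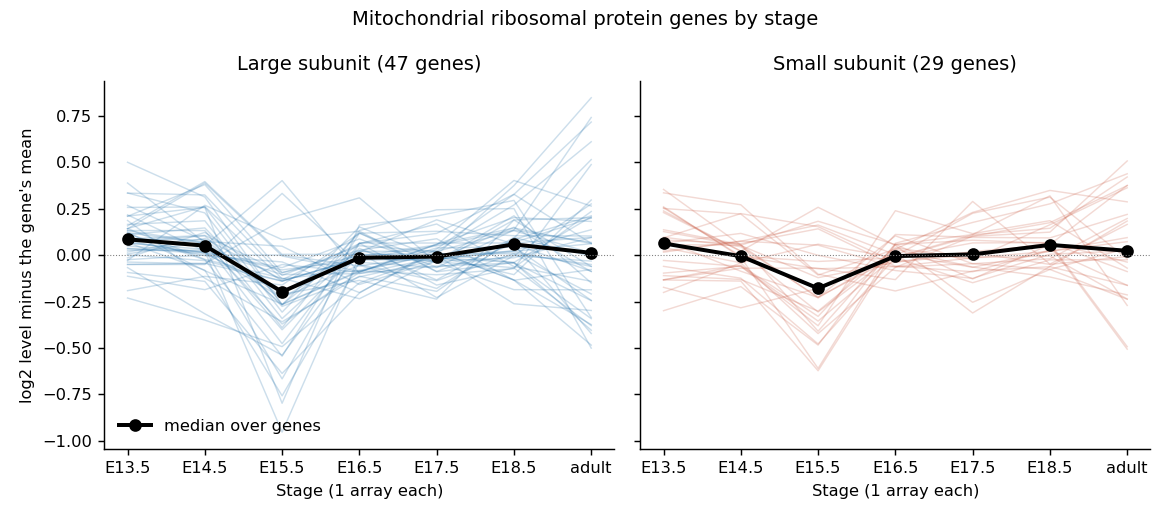
Level of each mitochondrial ribosomal protein gene on each of the 7 arrays (y axis, log2 level minus the gene's own mean; x axis, stage in order), with 47 large subunit genes on the left and 29 small subunit genes on the right. The thick black line is the median over genes, which is lowest at E15.5 in both subunits (−0.20 and −0.18), and the thin lines spread out in the adult.

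To ask whether members changed steadily before birth, a line through embryonic day was fitted to the 6 embryonic arrays in limma, with a separate term for the adult array. Of the 76 members, 1 was called higher with embryonic day and 0 lower at an adjusted p under 0.05 (1.32%), whereas 19.5% of all genes were called, 9.12% higher and 10.4% lower. At an unadjusted p under 0.05, 6 members had a positive and 6 a negative slope (15.8%, against 31.3% of all genes). By either rule the members' share was below that of all genes. Slopes ran from −0.11 per day in Mrpl13 to 0.13 per day in Mrps24, 32 being positive and 44 negative, with a median of −0.0099 in the members and 0.00087 in all genes. Their standard errors were between 0.017 and 0.095. The slope was under 0.1 per day in size in 72 of 76 members (94.7%), compared with 76.9% of all genes, and the 95% confidence interval lay within 0.2 per day of 0 for 67 members. Changes up to that rate could go uncalled with 6 arrays. Because the tissue was measured whole, a fall in the number of cells of a type and a fall in RNA per cell cannot be told apart.

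The single called slope was that of Mrps34, a small subunit protein found only in mitochondria, encoded on chromosome 17. From E13.5 to E18.5 its daily levels were 6.78, 6.67, 6.77, 6.94, 7.06 and 7.13, and the adult level was 7.33. Each array after E15.5 was above all earlier ones, and the slope was 0.087 per day (SE 0.022, limma adjusted p = 0.0362). The call was lost with each array centred on its median (adjusted p = 0.0534), with a trended and robust variance (0.0549), and without the array of E14.5 (0.103), E16.5 (0.0739), E17.5 (0.11) or E18.5 (0.165). A second probe set, shared with the neighbouring gene Nme3 and left out of the level, read 6.99, 7.17, 6.34, 6.68, 6.80 and 6.63 over the embryonic days and 6.80 in the adult, and so did not show the same climb.

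A few other members had slopes of similar or larger size with wider errors. Mrps24, of the small subunit, read 9.47, 9.60, 9.29, 9.84, 9.95 and 10.05 from E13.5 to E18.5 and 10.21 in the adult, for a slope of 0.13 per day (SE 0.039, adjusted p = 0.065). Its 3 late embryonic arrays all lay above its 3 early ones. Mrpl36, a large subunit protein with a bacterial relative, read 8.05, 7.93, 7.79, 8.13, 8.28 and 8.65 and was highest in the adult at 9.12 (slope 0.13, SE 0.042, adjusted p = 0.0868). Mrps36, which carries the family's symbol but is known as a component of the oxoglutarate dehydrogenase complex rather than of the ribosome, read 9.18, 9.18, 8.69, 9.35, 9.55 and 9.66 and then 9.60 in the adult. Its slope of 0.12 (SE 0.056) had an adjusted p of 0.204, and E15.5 was its lowest array. Mrpl12, part of the stalk that recruits translation factors, read 9.86, 9.61, 9.39, 9.95, 9.95 and 10.20 and then 10.54 in the adult, with a slope of 0.093 (SE 0.049, adjusted p = 0.261). Here the earliest array was higher than the following pair, so the levels did not climb day by day. Mrps28 (0.093), Mrpl43 (0.087), Mrps6 (0.069) and Mrpl28 (0.069) followed in size of slope, with adjusted p-values from 0.102 to 0.379. The brightest probe set of Mrpl28 had a slope of −0.0032, and its median follows a dimmer one.

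In the other direction, Mrpl13, a large subunit protein with a bacterial relative, read 10.49, 10.31, 9.73, 10.06, 9.83 and 9.92 from E13.5 to E18.5 and 9.61 in the adult (slope −0.11, SE 0.045, adjusted p = 0.141). The first pair of days held its highest values. Mrpl11, which lies at the base of the stalk, read 10.25, 10.24, 9.81, 9.97, 9.94 and 9.79 and was lowest in the adult at 9.44, for a slope of −0.088 (SE 0.030, adjusted p = 0.0887). Mrpl35 (−0.094), Mrps33 (−0.090), Mrps22 (−0.084) and Mrpl18 (−0.077) had slopes of like size, with adjusted p-values from 0.0817 to 0.21. The Mrpl35 value is that of a dim probe set (mean level 6.08), and its brightest (8.99) had a slope of 0.027. Mrps33 is a mitochondrial protein with no bacterial relative. The E15.5 array weighed on these calls. Without it 5 members were called higher with embryonic day (Mrps24, Mrpl36, Mrps36, Mrps28 and Mrps34) and 4 lower (Mrpl13, Mrpl11, Mrpl3 and Mrps10), or 11.8% of members against 25.3% of all genes in the same fit.

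**Figure D2:**
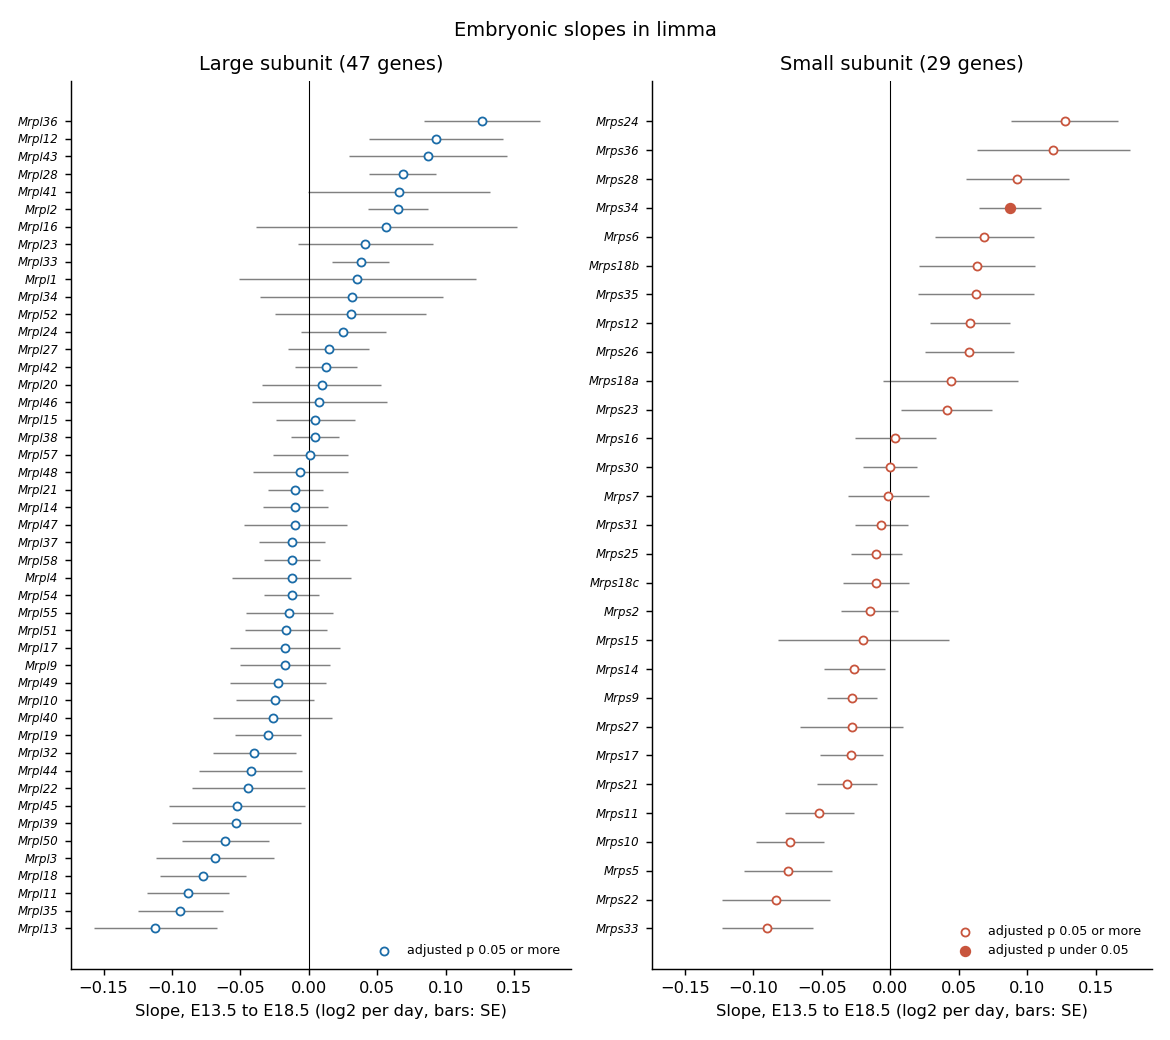
Embryonic slope of each member (x axis, log2 per day, E13.5 to E18.5; 1 row per gene), large subunit on the left and small subunit on the right. Points are limma estimates with bars of 1 standard error, filled where the adjusted p is under 0.05, and Mrps34 holds the only filled point.

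The adult array was then set against the level that the same fit gives at E18.5. Of the 76 members 1 was called higher in the adult and 2 were called lower (3.95%), against 18.6% of all genes (10.2% higher and 8.4% lower). No member differed by 2-fold or more at an adjusted p under 0.05, compared with 7.49% of all genes. Calls were thus a smaller share of the members than of all genes by both rules. At an unadjusted p under 0.05, 6 members were higher and 4 lower, and 31% of all genes passed in either direction. The median difference was 0.04 over members and 0.03 over all genes, with 42 members positive and 34 negative, and the 95% interval lay within 1 log2 unit of 0 for 65 members. The error of this comparison rests on the embryonic arrays, since the lone adult array is assumed to scatter as they do.

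Mrps30, also known as Pdcd9 and placed in the large subunit by structural work despite its symbol, gave the firmest adult difference. It read 9.97, 9.97, 10.10, 9.97, 9.995 and 9.98 from E13.5 to E18.5 and 9.42 in the adult. The 6 embryonic arrays spanned a narrow band and the adult lay well below it, by −0.57 (SE 0.10, limma adjusted p = 0.00933). Leaving out any single embryonic array kept this call, with adjusted p-values between 0.00519 and 0.0337. Mrps17, a small subunit protein with a bacterial relative, read 9.44, 9.57, 9.50, 9.31, 9.37 and 9.40 before birth and 8.84 in the adult, a difference of −0.52 (SE 0.12, adjusted p = 0.025). Its call was lost without E17.5 (0.066) or E18.5 (0.0927). Mrpl10, which forms the base of the stalk that holds Mrpl12, was the member called higher, with 6.92, 6.72, 6.54, 6.72, 6.70 and 6.73 before birth and 7.29 in the adult. The adult array stood above every embryonic one, and the difference was 0.63 (SE 0.15, adjusted p = 0.0277), a call lost without E14.5 (0.0577), E16.5 (0.0629), E17.5 (0.0772) or E18.5 (0.0578).

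Larger differences with larger errors were seen in Mrpl34, Mrpl36 and Mrpl23, all of the large subunit and all with bacterial relatives. Mrpl34 read 8.72 in the adult, against 7.94 fitted at E18.5, a difference of 0.79 (SE 0.34, adjusted p = 0.18). Mrpl36 was 0.67 higher (SE 0.22, adjusted p = 0.0809), with the adult array above all embryonic ones. Mrpl23 was the lowest of all members in this comparison, at 8.17 in the adult against 8.86 fitted at E18.5 (−0.69, SE 0.25, adjusted p = 0.116). Its 6 embryonic values were 8.80, 8.80, 8.28, 8.80, 8.92 and 8.92, so that the E15.5 array alone came near the adult level. The other members at the ends of this comparison had adjusted p-values from 0.0932 to 0.552. Above 0 were Mrpl4 (0.63), Mrpl43 (0.62), Mrps15 (0.49), Mrpl12 (0.48) and Mrpl39 (0.45). Below 0 were Mrpl1 (−0.48), Mrpl51 (−0.45), Mrps18a (−0.43), Mrpl11 (−0.34) and Mrpl50 (−0.32). The Mrpl51 value follows dimmer probe sets, and its brightest (mean level 11.36) went the other way, with an adult difference of 0.29. Without the E15.5 array 5 members were called higher in the adult (Mrpl10, Mrpl21, Mrpl34, Mrpl36 and Mrps6) and 6 lower (Mrpl1, Mrpl11, Mrpl23, Mrps17, Mrps18a and Mrps30), 11 of 76 in all, against 24.2% of all genes. The leukocyte, adipocyte and acinar markers and the 5′ to 3′ control differences moved with the adult array in the amounts given above, and their part in these differences was not tested.

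**Figure D3:**
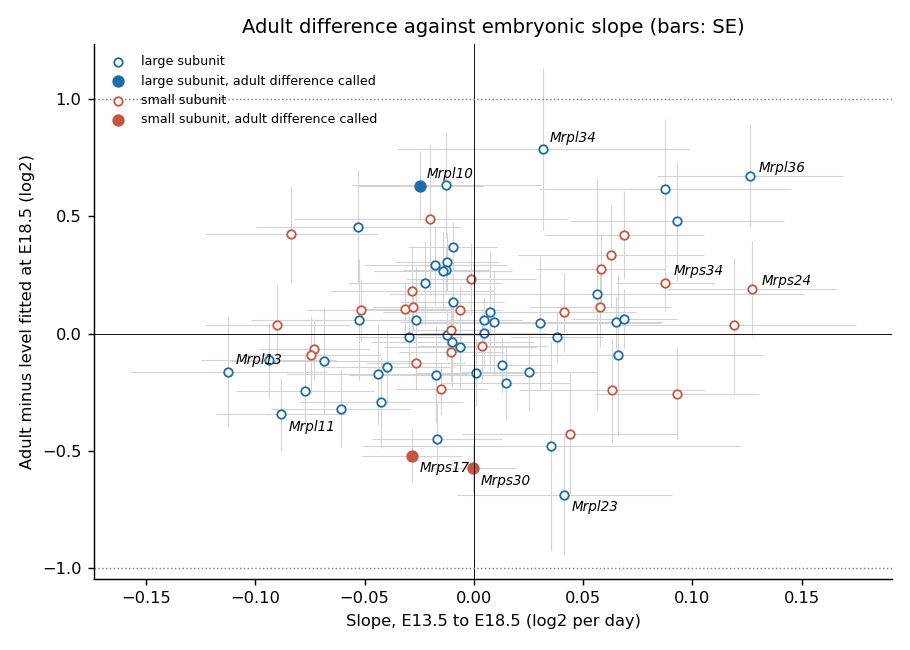
Adult level minus the level fitted at E18.5 (y axis, log2) against embryonic slope (x axis, log2 per day) for the 76 members, with bars of 1 standard error, large subunit in blue and small subunit in red. Filled points are called adult differences (Mrpl10 above 0, Mrps17 and Mrps30 below), and dotted lines mark 2-fold, which no point reaches.

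The 2 subunits were compared by their medians at each stage. Centred on each gene's mean, the large subunit median was 0.08, 0.05, −0.20, −0.01, −0.0078, 0.06 and 0.01 in order of stage, and the small subunit median was 0.06, −0.0058, −0.18, −0.0053, 0.0038, 0.06 and 0.02. At no stage did they differ by more than 0.06. The median slope was −0.010 over 47 large and −0.0065 over 29 small subunit genes, and the median adult difference was 0.0022 and 0.09. With Mrps30 and Mrps18a counted with the large subunit, where structures place them, and Mrps36 left out, the large minus small gap was 0.00056 in slope and −0.11 in adult difference. By origin, the 28 large subunit proteins classed with bacterial relatives had a median slope of −0.0098, and the 17 classed as mitochondrial only −0.013. In the small subunit by symbol these medians were −0.017 for 16 and 0.02 for 12. The 12 include Mrps30, and also Mrps18a (slope 0.044) and Mrps18b (0.063), which are related to bacterial S18. Their median is thus not one of proteins found only in mitochondria. No test was made between subunits or classes, since genes are not replicates.

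Mammals have 3 proteins related to the single bacterial S18, and no slope or adult difference of the 3 was called. Mrps18a read 8.02, 7.94, 7.47, 7.94, 7.99 and 8.20 before birth and 7.61 in the adult, an adult difference of −0.43 (SE 0.26, adjusted p = 0.329). Mrps18b read 9.31, 9.28, 8.96, 9.58, 9.45 and 9.52 and then 9.27, and Mrps18c read 10.68, 10.61, 10.43, 10.52, 10.56 and 10.62 and then 10.47. All 3 had their lowest array at E15.5. Mrps12, the relative of the bacterial decoding protein S12, also dipped there, at 9.13, between 9.30 at E14.5 and 9.48 at E16.5.

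The E15.5 array thus separated the members from all genes more than any steady trend did. It did not separate them from related lists described below. There 83.5% of respiratory chain and ATP synthase genes and 68% of cytosolic ribosomal protein genes were below both E14.5 and E16.5. A member's deviation at E15.5 was taken as its level minus the mean of E14.5 and E16.5. Its median was −0.23 over the members and −0.0021 over all genes, with −0.22 for the large and −0.23 for the small subunit. Of 76 members 55 (72.4%) were below both neighbouring days, compared with 31.4% of all genes, and 8 (10.5%) were above both, compared with 30.7%. The share below was 37 of 47 large and 18 of 29 small subunit genes (78.7% and 62.1%). Low values on this array were thus found in most genes of both subunits. E15.5 was the lowest of all 7 arrays for 41 members (53.9%, against 17% of all genes). On the other interior days the members below both neighbours numbered 8 at E14.5 (10.5%, against 28.3% of all genes), 13 at E16.5 (17.1%, against 22.1%) and 26 at E17.5 (34.2%, against 25.7%), so that no other day had a share like that of E15.5. This is a description of 1 array and carries no test.

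The deepest deviations, of at least 0.5, were found in 9 members (11.8%, against 3.89% of all genes), namely Mrpl1, Mrpl16, Mrpl41, Mrpl34, Mrps15, Mrpl52, Mrps36, Mrpl46 and Mrpl23. Mrpl16, a large subunit protein with a bacterial relative, read 8.77 and 8.57 at E13.5 and E14.5, 7.60 at E15.5, and 8.55, 8.60, 8.95 and 8.81 from E16.5 to the adult. Mrpl41, found only in mitochondria, read 9.91, 9.88, 9.18, 9.91, 9.97, 10.18 and 9.91 over the 7 stages. In both, the 6 other arrays all lay well above that of E15.5. Mrpl34 read 8.05, 7.90, 7.23, 7.94, 7.92, 8.12 and 8.72, and Mrpl46 read 8.69, 8.63, 8.09, 8.63, 8.63, 8.63 and 8.66. A few members went the other way. Mrpl44, a large subunit protein related to ribonuclease III, read 9.33, 9.29, 9.64, 9.14, 9.18, 9.20 and 8.90, so that E15.5 was its highest array (deviation 0.42), and 3 of its 4 probe sets deviated upward by 0.38 to 0.47. Mrpl47 (0.38), Mrps5 (0.22), Mrps14 (0.14), Mrps30 (0.13) and Mrps2 (0.12) were likewise highest at E15.5 by their medians. The probe sets behind these medians did not all agree. The brightest probe set deviated by −0.28 in Mrpl47 and by −0.76 in Mrps14, whose medians follow dimmer ones, and the 5 probe sets of Mrps5, all of mean level 6.28 or less, ran from −0.08 to 0.51. The brighter of the Mrps2 probe sets deviated by 0.25, and Mrps30 has only 1.

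**Figure D4:**
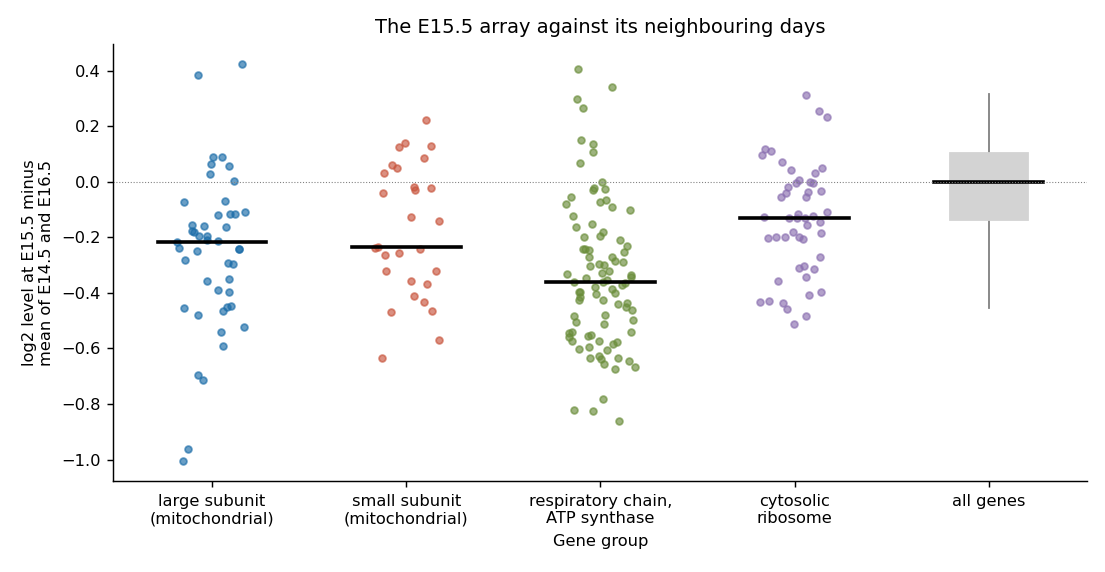
Deviation of the E15.5 array from the mean of E14.5 and E16.5 (y axis, log2) for each gene of 4 groups, with a black bar at the group median, and for all 18194 genes as a grey box (quartiles) with lines to the 5th and 95th percentiles. Medians are −0.22 for the large and −0.23 for the small mitochondrial subunit, −0.36 for respiratory chain and ATP synthase genes, −0.13 for cytosolic ribosomal proteins and −0.0021 for all genes.

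The deviation varied with signal. Among the 36 member probe sets with a mean level under 6, close to the dim end of the array, the median deviation was 0.05, and 19.4% were below both neighbours (all probe sets, 0.02 and 23.3%). Dim member probe sets thus showed no dip. From 6 to 8 it was −0.14 in 39 member probe sets, compared with −0.03 in all. From 8 to 10 it was −0.32 in 59, compared with −0.10, and at 10 and over it was −0.34 in 22, compared with −0.03. In the brightest class 90.9% of member probe sets were below both days, against 40.5% of all probe sets, so the dip was found in probe sets with clear signal. With the brightest probe set of each gene in place of the median, 58 members were below both days (76.3%, against 31.9% of all genes) and the median was −0.28, and with each array centred on its median these were 52 and −0.20. The E15.5 array had the lowest 5′ minus 3′ difference of the embryonic arrays for both Gapdh (−1.59, the others −1.48 to −1.29) and Actb (−2.14, the others −2.11 to −1.96). Its hybridisation controls averaged 10.82, within the range of 10.55 to 10.84 over the 7 arrays. Among tissue markers the median E15.5 deviation was −0.32 for colon epithelium, −0.19 for dividing cells and −0.09 for smooth muscle, with 2 of 12, 3 of 7 and 2 of 7 genes below both days. It was −0.10 for leukocytes (4 of 7), 0.03 for red blood cells (1 of 4) and 0.12 for enteric neurons and glia (1 of 5). The part of RNA integrity or tissue make-up in the dip was not tested.

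**Figure D5:**
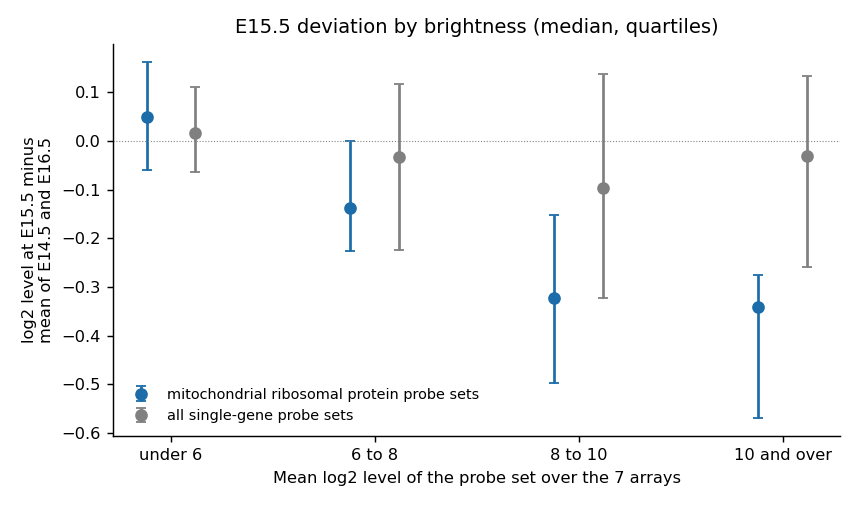
Deviation of the E15.5 array (y axis, log2 level minus the mean of E14.5 and E16.5) by mean log2 level of the probe set (x axis, 4 classes), as medians with bars from the lower to the upper quartile, for member probe sets (blue) and all single-gene probe sets (grey). Member medians are −0.32 at 8 to 10 and −0.34 at 10 and over, compared with −0.10 and −0.03 for all probe sets.

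Probe sets of 1 gene did not always agree, and 42 members had several (156 member probe sets in all). Fitted singly, 3 probe sets were called higher and 2 lower with embryonic day, and 1 was called higher and 6 lower in the adult, while 16.8% and 17.2% of all probe sets were called for slope and adult. With the brightest probe set of each gene in the fit, 3.95% of members were called for slope and 7.89% for the adult, against 21% and 22% of all genes. The slopes of a member's probe sets differed by over 0.1 per day in 9 members. Mrpl57, also called Mrp63, was the extreme case. One of its probe sets read 8.63 at E13.5 and 9.33 at E18.5 (slope 0.17, adjusted p = 0.0216) and the other 7.75 and 6.89 (slope −0.17, adjusted p = 0.0671), which leaves a median with no slope at all (0.0011). Mrpl1, whose bacterial relative forms a mobile stalk, had its E15.5 deviation of −1.01 from 1 probe set of 3, and the other 2 deviated by −0.09. Its brightest probe set fell over the embryonic days, reading 9.09 on the first day and 8.52 on the last, and 7.59 as an adult (slope −0.13, adjusted p = 0.0279; adult difference −0.88, adjusted p = 0.0104). The adult median of Mrpl1 came from this probe set and its embryonic medians from another, so its fitted adult difference of −0.48 mixes the 2. The step of Mrpl1 between E14.5 and E15.5 was also the only one of 2-fold or more between neighbouring stages in any member. Over all genes such steps made up 0.44%, 0.401%, 1.13%, 0.665% and 0.368% from one embryonic day to the next, and 8.17% between E18.5 and the adult. In Mrps25 the brightest probe set, at 8.42 in the adult after 8.92 to 9.16 before birth, was called lower (−0.48, adjusted p = 0.019), and the median was set by a dim one with no difference. Mrpl19 had 2 of its 4 probe sets called lower in the adult, the brightest among them (−0.79 and −0.56, limma adjusted p = 0.0373 and 0.0411). The others differed by 0.25 and 0.06, and the difference of its median was −0.016.

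The other genes that mitochondrial translation needs were compared by the same counts. Over all genes 19.5% were called for slope, 18.6% for the adult, and 31.4% were below both days at E15.5. No list in this paragraph had a larger called share with both directions counted, the highest being 15% for slope and 16.7% for the adult. The 15%, of mitochondrial DNA expression, were all called lower, against 10.4% of all genes. Of 4 measured ribosomal proteins with other symbols (Dap3, Chchd1, Ptcd3 and Gadd45gip1) none was called for slope or adult, and all 4 were below both neighbours at E15.5, with a median deviation of −0.27. None of 12 translation factors was called for slope, Mtif3, an initiation factor, was higher in the adult (0.94, adjusted p = 0.0204) and Guf1, an elongation factor, was lower (−0.78, adjusted p = 0.0397). Of these 12 factors 9 were below both days at E15.5. Among 19 genes for mitochondrial tRNA synthetases and the related amidotransferase, none was called for slope, and Qrsl1 (0.999, adjusted p = 0.00499) and Fars2 (0.59, adjusted p = 0.0196) were higher in the adult, with 10 of the 19 below both days at E15.5. Of 27 assembly and rRNA modification factors, Mpv17l2 rose across the embryonic days (0.13 per day, adjusted p = 0.0112) and was again higher in the adult (0.77, adjusted p = 0.00585), while Gtpbp10, a GTPase of large subunit assembly, fell (−0.19 per day, adjusted p = 0.005). These factors showed no dip as a group, with 11 of 27 below both days (40.7%) and a median deviation of 0.04. Of 20 genes of mitochondrial DNA expression 3 fell, namely Tfam, which packages the mitochondrial genome (−0.15 per day, adjusted p = 0.0066), Tefm, a transcription elongation factor (−0.13, adjusted p = 0.0257), and Twnk, the replicative helicase (−0.13, adjusted p = 0.0491). Polg2, an accessory subunit of the mitochondrial DNA polymerase, was the one higher in the adult (0.91, adjusted p = 0.0341), and 12 of the 20 were below both days at E15.5.

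The same counts were made for the respiratory chain and the cytosolic ribosome, with genes taken by symbol. The first list thus also holds the complex I assembly factors Ndufaf1 to Ndufaf8. The second also holds Rps19bp1, which is named for binding Rps19. Of 91 respiratory chain and ATP synthase genes encoded in the nucleus, 13 rose with embryonic day and 1, Cox7c, fell (15.4%, against 19.5% of all genes). By direction, 9.12% of all genes were called higher and 10.4% lower. The median slope of the 91 was 0.08, with 79 positive slopes. In the adult 6 were called higher and 0 lower (6.59%, against 18.6% of all genes, 10.2% higher and 8.4% lower). The median E15.5 deviation of the 91 was −0.36, with 76 (83.5%) below both days. The low array at E15.5 was thus shared by the respiratory chain and the mitochondrial ribosome, among other lists, while their median slopes were 0.08 and −0.0099 per day. The largest slopes of the chain were those of Cox7a1, an isoform known from muscle (0.44, adjusted p = 0.00504), and Uqcr10, of complex III (0.37, adjusted p = 0.0138). Of 50 cytosolic ribosomal protein genes 0 rose and 4 fell, namely Rps3, Rps20, Rps25 and the pseudogene Rps15a-ps6 (8%, against 10.4% of all genes lower and 19.5% in either direction). In the adult 0 were called higher and 11 lower (22%, against 8.4% of all genes lower and 18.6% in either direction), with a median adult difference of −0.20. The median E15.5 deviation of the 50 was −0.13 with 34 (68.0%) below both days, against 31.4% of all genes. Low values on this array were thus not limited to mitochondrial genes.

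Promoter sequences were read for the members, most of which lay low on the same array. In the RefSeq table for GRCm38.p6, windows of 300 bases, from 250 before to 50 after the start of transcription, were held for 67 of the 76 members. The other 9 are Mrpl4, Mrpl13, Mrpl15, Mrpl19, Mrpl38, Mrpl54, Mrps28, Mrps34 and Mrps35. Motifs known from promoters of mitochondrial genes were searched on both strands. The ETS core CCGGAAG, bound by the family that includes GABPA (also called NRF2), was in 25 of 67 members (37.3%) and in 15% of the 14453 array genes in the table. The YY1 core AAGATGG was in 13 (19.4%, against 7.53%), and the NRF1 core, GCGCA and GCGC with any base between them, was in 12 (17.9%, against 8.61%). The ETS core ends in the same AAG with which the YY1 core begins, so that matches to the pair can overlap. The E-box CACGTG was in 5 members (7.46%, against 10.2%). At least 1 of the first 3 motifs was in 41 members (61.2%, against 27.2%), with 63.4% of the large and 57.7% of the small subunit. The same search was made in the neighbouring complexes. The ETS core was in 35.7% and any of the 3 in 51.4% of 70 cytosolic ribosomal protein genes in the table, and among 78 respiratory chain and ATP synthase genes these were 24.4% and 55.1%, with the NRF1 core in 24.4%. A match is only a run of letters and is no measure of binding.

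Members with and without each motif were then set side by side. The median E15.5 deviation was −0.26 in the 25 members with the ETS core and −0.21 in the 42 without it, −0.24 and −0.20 for the YY1 core, and −0.20 and −0.24 for the NRF1 core. The median slope was −0.0063 with and −0.011 without the ETS core. The median adult difference was −0.02 and 0.05 for the ETS core, 0.18 and 0.0050 for the YY1 core, and 0.11 and 0.02 for the NRF1 core, and none of these gaps was tested. To show what these matches look like, 1 window is printed for each of the YY1, ETS and NRF1 cores, from members described above, and that of Mrps30, the most firmly called member, follows as one in which none of the 4 motifs was found. The choice was made after the values were seen. Capitals mark the motif, and sequences run 5′ to 3′ along the strand of the gene. Mrps24 (chr11:5707652-5707951, minus strand) holds the YY1 core from position +37, Mrpl34 (chr8:71464676-71464975, plus strand) the ETS core from −37, and Mrpl44 (chr1:79775768-79776067, plus strand) the NRF1 core from −35. The window of Mrps30 is chr13:118387203-118387502 on the minus strand. Only exact matches were searched. This window holds aaaatgg, which differs from the YY1 core by 1 letter. It also holds gttccgg, which differs by 1 letter from CTTCCGG, the ETS core as read on the other strand.
Mrps24: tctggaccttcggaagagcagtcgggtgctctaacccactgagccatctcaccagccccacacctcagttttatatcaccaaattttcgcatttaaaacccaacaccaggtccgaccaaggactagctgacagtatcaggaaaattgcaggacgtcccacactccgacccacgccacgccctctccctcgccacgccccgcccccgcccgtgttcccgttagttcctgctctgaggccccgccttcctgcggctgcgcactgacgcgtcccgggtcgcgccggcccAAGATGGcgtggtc
Mrpl34: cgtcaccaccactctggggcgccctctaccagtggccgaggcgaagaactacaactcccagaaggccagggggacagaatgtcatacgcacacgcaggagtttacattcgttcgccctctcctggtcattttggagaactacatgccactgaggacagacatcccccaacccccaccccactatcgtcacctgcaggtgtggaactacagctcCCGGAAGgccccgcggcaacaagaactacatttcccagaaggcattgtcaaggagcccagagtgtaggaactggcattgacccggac
Mrpl44: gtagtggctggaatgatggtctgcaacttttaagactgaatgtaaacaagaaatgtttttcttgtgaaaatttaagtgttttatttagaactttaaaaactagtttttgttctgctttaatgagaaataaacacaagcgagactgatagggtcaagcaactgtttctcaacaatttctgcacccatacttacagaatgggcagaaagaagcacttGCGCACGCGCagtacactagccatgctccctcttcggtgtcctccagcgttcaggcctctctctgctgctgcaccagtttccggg
Mrps30: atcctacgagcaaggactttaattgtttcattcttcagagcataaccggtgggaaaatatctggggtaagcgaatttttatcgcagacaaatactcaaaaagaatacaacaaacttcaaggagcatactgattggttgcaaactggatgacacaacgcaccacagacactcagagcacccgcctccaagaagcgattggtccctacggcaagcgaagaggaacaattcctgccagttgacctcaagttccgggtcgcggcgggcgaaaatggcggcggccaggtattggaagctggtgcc
Of these 4 genes, Mrpl34 deviated by −0.70 and Mrps24 by −0.43 at E15.5, and Mrpl44 by 0.42 and Mrps30 by 0.13, so the printed windows cover both directions of that array.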

How the data were processed

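Total RNA of mouse colon was hybridised by the authors to Affymetrix Mouse Genome 430 2.0 arrays, 1 per stage for 7 stages. The deposited values are log2 levels per probe set, normalised with RMA, for which affy 1.22.1 in R 2.9.2 is listed in the processing notes of the submitters. A change shared by most genes would be removed by RMA. Of 45101 probe sets, 34958 named 1 gene, 932 several and 9211 none in the platform annotation. Symbols were updated through GRCm38.p6 (18033 of 18195 identifiers matched), and the median over the single-gene probe sets was taken for 18194 genes, with no filter and no pseudocount. limma 3.58.1 (lmFit, eBayes) in R 4.3.3 fitted a slope through embryonic day and an adult term on all 7 arrays, with 4 residual degrees of freedom, and p-values were adjusted over all genes by the Benjamini-Hochberg method. The adult array was set against the level fitted at E18.5, and calls were made at an adjusted p under 0.05. The number of arrays limits the precision, and p-values measure only the scatter of single arrays around a line, which may be partly technical.

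The naming rule took members with a called slope (at most 12 each way), the 8 largest adult differences each way, the 4 highest and 4 lowest by mean level, those with opposed probe sets, and Mrps18a, Mrps18b, Mrps18c, Mrps30, Mrps36, Mrpl12 and Mrps12. Other members were named after their values were seen, for uncalled slopes, for E15.5 and for calls in alternative fits, as were Twnk, Cox7c, Rps20 and Rps15a-ps6. The members and gene lists were chosen with earlier results of these data known. The fit was tested on simulated data. Figures and summaries used Python 3.11.15, numpy 2.4.6, pandas 2.3.3 and matplotlib 3.10.9. Alternatives were another probe set rule, a filter on dim genes, centring of arrays, another variance model, other forms of the embryonic term, leaving out each embryonic array, and another assignment of subunits.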

Additional observations from a re-analysis of the deposited data

How the results depend on the processing

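Counts of called members were small and moved with most choices. With the brightest probe set of each gene, 2 members were called higher and 1 lower in slope and 5 lower in the adult. With arrays centred on their medians, 0 were called higher and 2 lower in slope (Mrpl11 and Mrps10; 2.63%, against 21.2% of all genes), and with a trended, robust variance 0 were called higher. Leaving out each embryonic array in turn gave 0 to 5 higher and 0 to 4 lower in slope, and 0 to 5 higher and 1 to 6 lower in the adult, the highest count coming without E15.5 in each case. In the same fits 10.4% to 25.3% of all genes were called for slope and 12% to 24.2% for the adult. The median slope ranged from −0.019 to 0.013 over these fits, the large minus small gap from −0.019 to 0.0032 in slope and from −0.087 to −0.017 in adult difference, and the median adult difference from −0.0080 to 0.097. Of 1672 values of the 76 members under the alternatives, 1530 kept sign and side of the threshold, 106 changed sign without a call, 12 lost a call and 22 gained one. Calls with the opposite sign arose with the brightest probe set for Mrpl1 (slope −0.13) and Mrps25 (adult −0.48), where the median follows dimmer probe sets. No paired analysis was possible because each stage has 1 array. Dim probe sets limit what can be said of 36 of the 156 member probe sets, whose mean level is under 6. The E15.5 deviation was recomputed with the brightest probe set and with centred arrays, both chosen after the data were seen.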

Other observations

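The 4 probe sets shared between a member and another gene entered none of the comparisons. The brighter one shared by Mrpl30 and Gm6238 read 10.39, 10.29, 9.46, 10.32, 10.33 and 10.47 from E13.5 to E18.5 and 10.66 in the adult, with E15.5 again its lowest array. The dimmer one read between 6.85 and 7.35. The probe set shared by Mrpl53 and Ccdc142 read 7.42, 7.40, 7.29, 7.37, 7.40 and 7.51 and then 7.64, also lowest at E15.5. Which of the 2 genes gives such a signal cannot be told apart.

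The colorectal tumour signature that the study derived for its subtype 3 holds 12 members among its up-regulated genes (Mrpl4, Mrpl11, Mrpl13, Mrpl15, Mrpl18, Mrpl42, Mrpl44, Mrps2, Mrps7, Mrps17, Mrps30 and Mrps34). In mouse colon their slopes ran from −0.11 to 0.087 per day with a median of −0.014, compared with −0.0098 in the other 64 members, and 9 of the 12 were negative, compared with 35 of the 64. Their median adult difference was −0.20, compared with 0.05 in the others. The 12 include Mrps34, the only member called in slope, and both members called lower in the adult. Over all genes 9.12% were called higher in slope and 8.4% lower in the adult (19.5% and 18.6% in either direction). So few calls among 12 genes give no share to set against these. These are values for genes matched by symbol between species, and no test was made.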
